A study of Mus musculus with 17 samples.

Results

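The PDGF ligands Pdgfa, Pdgfb, Pdgfc and Pdgfd and the receptors Pdgfra and Pdgfrb were followed in the infarcted mouse heart. The 6 genes were chosen by name, as the complete set of genes for the ligand chains and receptors, out of 31647 features in the count table. All 6 had a feature of their own and all 6 had enough counts to be tested, as did 12301 features in all. RNA was taken from 17 hearts of male wild-type C57BL/6J mice that were 8 to 11 weeks old. In 9 mice the left anterior descending artery (LAD) had been ligated permanently, without reperfusion, and the infarct zone (IZ) was taken at 5 d post-MI (after myocardial infarction). The other 8 mice had sham surgery without ligation, and their left ventricle (LV) was taken at the same time. Each library came from a single mouse, the groups shared the genotype and the thoracic surgery, and IZ is a dissected region of the ventricle whereas sham is LV, so region and injury cannot be told apart. Transcripts were counted by massive analysis of cDNA ends (MACE), which reads the 3' end of each molecule once, so that counts of different genes can be set side by side without correction for transcript length.

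PDGFs are secreted dimers that act as mitogens and chemoattractants for mesenchymal cells. PDGF-A and PDGF-B are cut by furin-like convertases inside the cell, whereas PDGF-C and PDGF-D leave the cell as latent proteins and become active only when extracellular proteases remove their CUB domain. The receptor Pdgfra binds PDGF-A, PDGF-B and PDGF-C chains and is a classical marker of cardiac fibroblasts. Pdgfrb binds PDGF-B and PDGF-D chains and is typical of pericytes and vascular smooth muscle cells, which endothelial PDGF-B recruits to vessels.

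Libraries held 1237675 to 4738307 counts. Levels are given as CPM, which are counts relative to a library size corrected by TMM (the trimmed mean of M values), and 3 counts corresponded to 1.14 to 2.35 CPM in sham and to 0.414 to 1.68 CPM in IZ. The labelled tissue carried its markers. The summed level of 8 cardiomyocyte markers was 62056 to 75346 CPM in sham and 2792 to 29054 CPM in IZ, and all 8 were lower in IZ by edgeR's test under every scaling used. IZ replicate 1 stood apart, with the 29054 CPM and with 19.5% of its counts from mitochondrially encoded features, against 4.22 to 6.78% in the other IZ libraries and 22.9 to 32.4% in sham. Member calls that depended on this library are given with and without it.

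Promoter sequences from the RefSeq table (GRCm38.p6) are shown for 4 members. These 4 were all called different between the groups, and their letters are where a start of each gene can be compared. Pdgfrb was called too, but its promoter and that of Pdgfb are not shown. Each sequence runs 5' to 3' on the gene's own strand from 250 bases before to 50 bases after the start listed for that promoter. The listed start need not be the 5' end of the gene span given below, and both Pdgfa windows lie inside that span. Capitals mark a match to the GC box (GGGCGG), the TATA box (TATAAA), the AP-1 site (TGANTCA), the shear stress element (GAGACC) or the CArG box, searched on both strands. The motifs were chosen with the sequences in view and no match overlapped another.
Pdgfc, chr3:81036166-81036465, plus strand: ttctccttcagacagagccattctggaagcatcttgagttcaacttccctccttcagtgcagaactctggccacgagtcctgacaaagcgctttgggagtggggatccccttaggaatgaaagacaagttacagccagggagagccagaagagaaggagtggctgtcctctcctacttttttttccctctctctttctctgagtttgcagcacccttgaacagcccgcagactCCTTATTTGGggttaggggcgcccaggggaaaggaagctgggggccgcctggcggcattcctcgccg
Pdgfd, chr9:6168236-6168535, plus strand: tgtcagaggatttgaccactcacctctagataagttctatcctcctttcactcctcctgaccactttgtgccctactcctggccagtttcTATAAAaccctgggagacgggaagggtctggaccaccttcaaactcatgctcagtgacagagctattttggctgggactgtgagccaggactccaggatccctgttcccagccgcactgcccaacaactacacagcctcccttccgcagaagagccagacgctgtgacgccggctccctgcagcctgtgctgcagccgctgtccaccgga
Pdgfra, chr5:75152001-75152300, plus strand: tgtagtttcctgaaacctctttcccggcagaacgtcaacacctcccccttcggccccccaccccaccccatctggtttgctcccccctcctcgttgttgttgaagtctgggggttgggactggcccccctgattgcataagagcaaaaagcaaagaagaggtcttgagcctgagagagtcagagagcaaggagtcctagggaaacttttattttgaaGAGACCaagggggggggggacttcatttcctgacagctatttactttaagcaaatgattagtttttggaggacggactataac
Pdgfa, chr5:138994895-138995194, minus strand: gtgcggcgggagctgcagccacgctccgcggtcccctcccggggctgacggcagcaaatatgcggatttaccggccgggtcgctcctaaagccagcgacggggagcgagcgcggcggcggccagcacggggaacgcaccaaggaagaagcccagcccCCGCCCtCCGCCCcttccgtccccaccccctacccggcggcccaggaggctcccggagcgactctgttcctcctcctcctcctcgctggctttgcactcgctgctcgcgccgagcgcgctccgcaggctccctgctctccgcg
The Pdgfc promoter held a CArG box that starts at position -17 from the listed start, a motif found in 1.63% of the 32851 promoters of the table. The Pdgfd promoter held a TATA box at -160, which 13.6% of promoters hold somewhere. The Pdgfra promoter held the shear stress element at -33, which 16.4% hold. Of the 2 Pdgfa promoters in the table, the one printed held a pair of GC boxes read on the opposite strand at -93 and -86, a motif present in 35.7% of promoters. The other, chr5:138994232-138994531, held 1 GC box at -60 and had a GC content of 67.0%. The GC content of the printed Pdgfa promoter was 73.3%, against 55.0% for Pdgfc, 56.7% for Pdgfd, 51.0% for Pdgfra and a median of 52.7% over the table. No AP-1 site was matched in these 4 windows, and 7.81% of all promoters hold one. A match describes letters only.

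The members lie on 5 chromosomes, and all are annotated as protein-coding in GRCm38 (mm10). Pdgfa (ENSMUSG00000025856) spans chr5:138976014-138997370 on the minus strand and Pdgfb (ENSMUSG00000000489) spans chr15:79995874-80014977 on the minus strand. Pdgfc (ENSMUSG00000028019) spans chr3:81036416-81214040 and Pdgfd (ENSMUSG00000032006) spans chr9:6168584-6378850, both on the plus strand. Pdgfra (ENSMUSG00000029231) spans chr5:75152292-75198215 and Pdgfrb (ENSMUSG00000024620) spans chr18:61045150-61085061, both on the plus strand. No annotated neighbour covered the 3' end of a member, and the last 500 bases of 0 of the 6 matched another gene. The antisense gene 6330403L08Rik at the start of Pdgfa had 333 counts over all libraries, and the strand setting of the counting is not given in the sources used here.

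To see how the PDGF system differed between IZ and sham LV, each member was tested with edgeR's quasi-likelihood test and Benjamini-Hochberg adjustment over all 12301 features. Pdgfa, Pdgfc, Pdgfra and Pdgfrb were higher in IZ. Pdgfd was lower with TMM scaling, while scaling by total counts alone turned it upward without a call. Pdgfb did not pass the threshold with TMM and was called higher with total counts alone, which left 5 members called higher and 0 lower. Of the 6 members, 5 were called, where 69.5% of all tested features were called. The 4 members called higher and 1 called lower stand beside 36.3% of features called higher and 33.1% called lower. For 3 members every IZ library lay above every sham library, which was so for 16.6% of features. In bulk tissue, fewer cells of a type and less RNA per cell cannot be told apart.

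**Figure D1:**
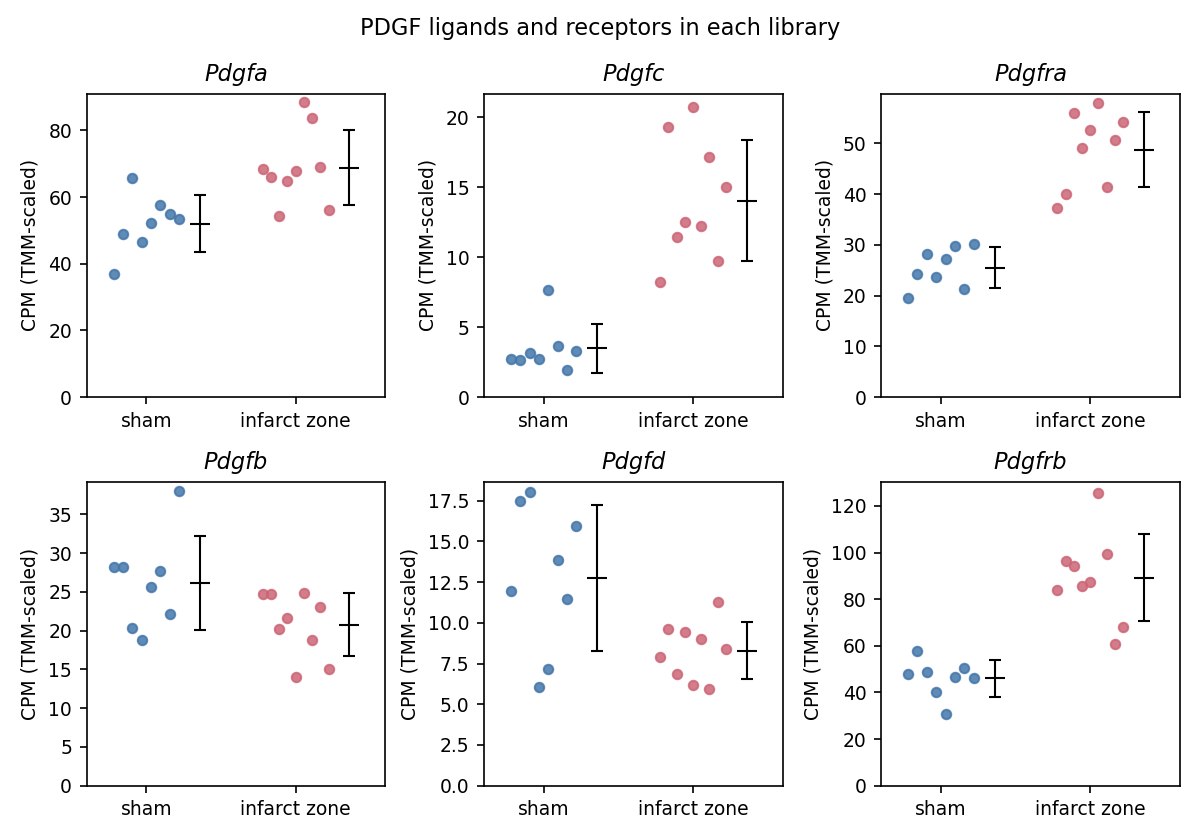
Level of each PDGF member in every library, as TMM-scaled CPM on a linear axis from 0, with 8 sham (blue) and 9 IZ (red) libraries in the order of their replicate numbers and, beside them, the mean with SD. Pdgfc, Pdgfra and Pdgfrb do not overlap between the groups, Pdgfa, Pdgfb and Pdgfd do, and the lower Pdgfb and Pdgfd in IZ turn upward when libraries are scaled by total counts alone.

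Among the ligands, Pdgfc differed most. Its level in sham was 2.71, 2.69, 3.14, 2.76, 7.69, 3.64, 1.91 and 3.30 CPM in replicates 1 to 8, on 4 to 15 counts per library. In IZ it was 8.26, 19.3, 11.4, 12.6, 20.8, 12.2, 17.2, 9.72 and 15.1 CPM in replicates 1 to 9, on 19 to 140 counts. Sham replicate 5 was well above the other sham libraries and came close to IZ replicate 1, and the groups did not overlap. The sham mean of 3.48 ± 1.78 CPM (SD, n = 8) stood against 14.1 ± 4.30 CPM in IZ (SD, n = 9). The log2 fold change was 2.0 (SE 0.26, 95% interval 1.45 to 2.55), and the edgeR adjusted p was 4.93e-07. Without sham replicate 5 the log2 fold change was 2.29. Even so, Pdgfc was a low transcript, at the 23.0 percentile of mean level among tested features.

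Pdgfa, whose product signals through Pdgfra homodimers, was the most abundant ligand in both groups. It ran from 36.9 CPM in sham replicate 1 through a median of 52.8 to 65.9 CPM in sham replicate 3. In IZ it ran from 54.2 CPM in replicate 3 through a median of 67.9 to 88.5 CPM in replicate 6. The groups overlapped, with 6 of 9 IZ libraries above every sham library. The mean rose from 52.0 ± 8.47 CPM (SD, n = 8) to 68.8 ± 11.2 CPM (SD, n = 9), a log2 fold change of 0.40 (SE 0.12, 95% interval 0.15 to 0.65, edgeR adjusted p 0.00515).

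Pdgfb encodes the chain that binds both receptors. Its lowest, median and highest levels were 18.8, 26.7 and 38.0 CPM in sham and 14.0, 21.6 and 24.8 CPM in IZ. Sham replicate 8 was highest and IZ replicates 5 and 9 fell below every sham library, while the remaining 7 IZ libraries lay within the sham range. The sham mean was 26.1 ± 6.03 CPM (SD, n = 8) and the IZ mean 20.8 ± 4.12 CPM (SD, n = 9). The log2 fold change was -0.32 (SE 0.15, 95% interval -0.63 to -0.0044) with an edgeR adjusted p of 0.0663, while with total counts alone Pdgfb was called higher (0.75, edgeR adjusted p 2.39e-04). Omitting sham replicate 3, 4 or 7 or IZ replicate 1 brought the edgeR adjusted p to 0.0419, 0.0299, 0.0487 and 0.0299, with log2 fold changes of -0.37, -0.39, -0.36 and -0.38.

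Pdgfd, the latent ligand of Pdgfrb, had the widest relative spread in sham after Pdgfc. Its lowest, median and highest levels were 6.08, 12.9 and 18.0 CPM in sham and 5.91, 8.37 and 11.3 CPM in IZ. Sham replicates 4 and 5 lay within the IZ range, the other 6 sham libraries lay above every IZ library, and 1 IZ library lay below all sham. Sham averaged 12.7 ± 4.47 CPM (SD, n = 8) and IZ 8.28 ± 1.76 CPM (SD, n = 9). With TMM it fell by 0.58 on the log2 scale (SE 0.21, 95% interval -1.01 to -0.15, edgeR adjusted p 0.0165), but with total counts alone it was 0.48 higher (edgeR adjusted p 0.0525). The edgeR adjusted p was 0.0509 with upper quartile scaling and 0.0529 with no filter on low counts.

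Both receptors rose. Pdgfra had its lowest, median and highest levels at 19.5, 25.7 and 30.3 CPM in sham and at 37.3, 50.6 and 57.9 CPM in IZ. All 9 IZ libraries lay above all 8 sham libraries, and IZ replicate 1 was the lowest of them. Means were 25.5 ± 3.96 CPM (SD, n = 8) and 48.8 ± 7.48 CPM (SD, n = 9), which is 1.92 times the sham level (log2 fold change 0.94, SE 0.12, 95% interval 0.68 to 1.2, edgeR adjusted p 4.49e-07).

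Pdgfrb was more abundant than Pdgfra in sham and in IZ. Its lowest, median and highest levels were 30.8, 47.2 and 57.8 CPM in sham and 60.9, 87.5 and 125.6 CPM in IZ. The groups again did not overlap, with IZ replicate 8 lowest, close to sham replicate 2, and IZ replicate 6 well above the rest. Means were 46.1 ± 7.86 CPM (SD, n = 8) and 89.1 ± 18.7 CPM (SD, n = 9), which is 1.94 times the sham level (log2 fold change 0.96, SE 0.14, 95% interval 0.67 to 1.24, edgeR adjusted p 1.62e-06).

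The order of the members differed between the groups. In sham the means ran Pdgfa, Pdgfrb, Pdgfb, Pdgfra, Pdgfd and Pdgfc from high to low. Pdgfa and Pdgfrb differed by 0.18 ± 0.36 in log2 CPM (SD over 8 libraries). Pdgfb and Pdgfra differed by 0.016 ± 0.33, with Pdgfb higher in 4 of 8 libraries. In IZ the order was Pdgfrb, Pdgfa, Pdgfra, Pdgfb, Pdgfc and Pdgfd. Pdgfrb exceeded Pdgfa in 8 of 9 IZ libraries by 0.36 ± 0.27 in log2 CPM, while Pdgfa exceeded Pdgfrb in 6 of 8 sham libraries. The low pair changed places as well, since Pdgfd exceeded Pdgfc in 7 of 8 sham libraries by 1.78 ± 0.89, and Pdgfc exceeded Pdgfd in 8 of 9 IZ libraries by 0.71 ± 0.62. Pdgfb and Pdgfc, neighbours in IZ, differed by 0.58 ± 0.66, with Pdgfb higher in 7 of 9 libraries. These SDs describe the spread of single libraries, and the order of neighbours was not tested.

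Shares within a library do not depend on how libraries are scaled against each other, so the make-up of the ligand counts and of the receptor counts was compared next. A library held 134 to 237 ligand counts in sham and 194 to 867 in IZ, and 98 to 188 and 218 to 989 receptor counts. Each of the 6 measures was tested by two-sided exact permutation, in which the difference in means was recomputed for all 24310 splits, with Benjamini-Hochberg adjustment over the 6.

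The ligand make-up differed for each of the 4 chains. Pdgfc took 2.11 to 8.29% of the ligand counts in sham and 7.54 to 19.1% in IZ, with 8 of 9 IZ libraries above every sham library. Its mean share rose from 3.72 ± 1.92% (SD, n = 8) to 12.7 ± 3.90% (SD, n = 9), by 8.94 percentage points (95% interval 5.70 to 12.2, exact permutation p 2.06e-04, adjusted 6.17e-04). IZ replicate 1 had the lowest share of the IZ libraries, at 7.54% with an exact binomial 95% interval of 4.84 to 11.1% from counting alone.

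Pdgfb and Pdgfd gave up share in turn, whatever the scaling. Pdgfb went from 27.8 ± 5.30% (SD, n = 8) to 18.6 ± 3.33% (SD, n = 9), a difference of -9.14 percentage points (95% interval -13.7 to -4.63, exact permutation p 5.76e-04, adjusted 0.00115), with 4 of 9 IZ libraries below all sham. Pdgfd went from 13.3 ± 3.68% (SD, n = 8) to 7.47 ± 1.64% (SD, n = 9), a difference of -5.80 percentage points (95% interval -8.66 to -2.89, exact permutation p 0.00119, adjusted 0.00179), with 5 of 9 IZ libraries below all sham. These falls are relative to the other ligands.

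Pdgfa took the largest share of the ligand counts in each of the 17 libraries. Its share ran from 46.3 to 62.7% in sham and from 55.1 to 66.7% in IZ, so the ranges overlapped widely. The mean went from 55.3 ± 6.30% (SD, n = 8) to 61.3 ± 3.60% (SD, n = 9), a rise of 6.0 percentage points (95% interval 0.724 to 11.3, exact permutation p 0.0282, adjusted 0.0338). The call was lost on omission of sham replicate 1, 2 or 8 or IZ replicate 1, 5, 6 or 7, with differences of 4.72, 5.30, 5.00, 5.83, 5.86, 5.43 and 5.32 percentage points and adjusted exact permutation p of 0.0520 to 0.0718.

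In contrast, no difference in the receptor split was detected. Pdgfra took 35.96 ± 6.23% of the receptor counts in sham (SD, n = 8; range 29.0 to 46.9%) and 35.8 ± 6.08% in IZ (SD, n = 9; range 29.3 to 45.4%). The difference was -0.18 percentage points with a 95% interval of -6.58 to 6.26 (exact permutation p 0.938, adjusted 0.938). An interval of that width does not show that the split was equal. Sham replicate 5 and IZ replicates 8 and 9 had the highest Pdgfra shares, at 46.9, 45.4 and 44.3%.

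**Figure D2:**
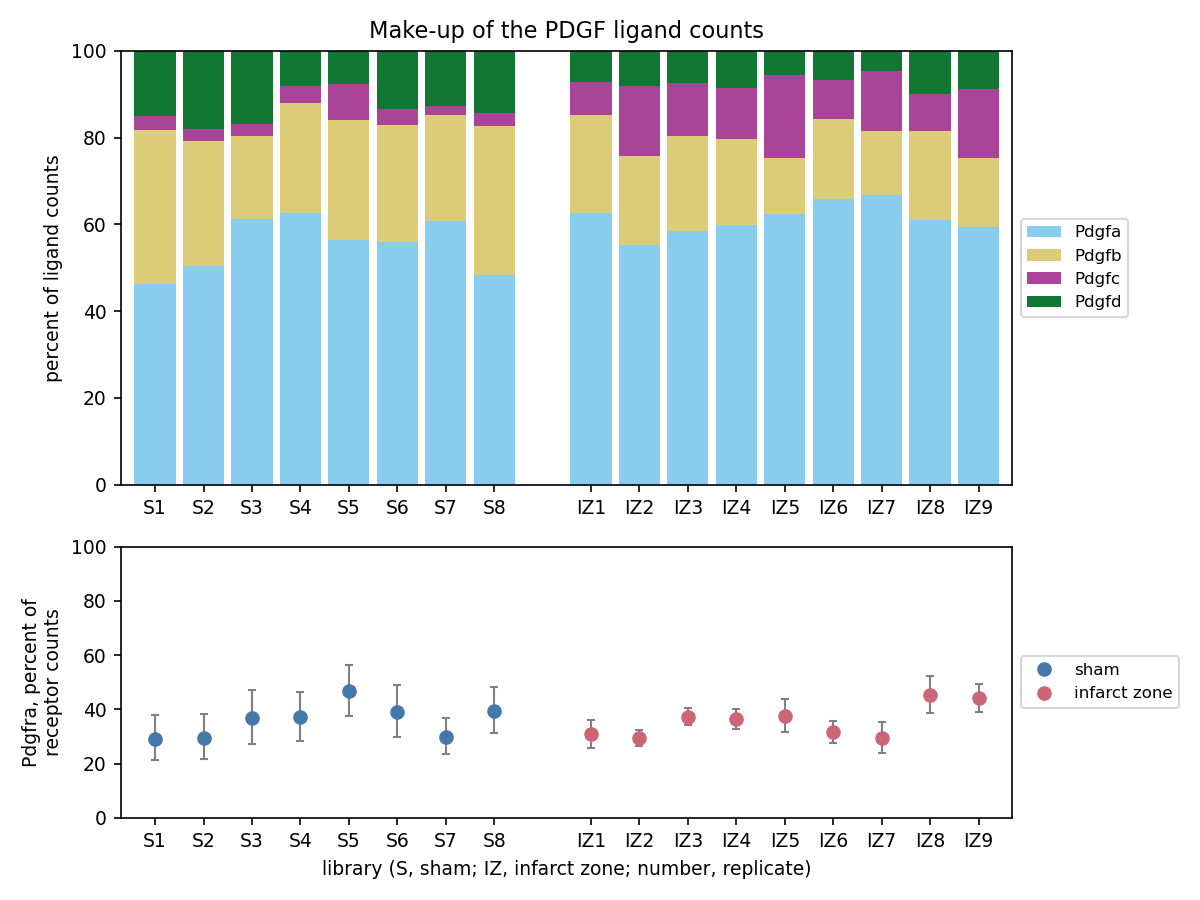
Upper panel, share of Pdgfa, Pdgfb, Pdgfc and Pdgfd in the summed ligand counts of each of 17 libraries, in percent. Lower panel, share of Pdgfra in the summed receptor counts of the same libraries, in percent, with exact binomial 95% intervals that cover counting error only. The Pdgfc band widens from 2.11 to 8.29% in sham to 7.54 to 19.1% in IZ, while the Pdgfra points of both groups spread over the same range.

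The balance of ligand to receptor transcripts separated the groups. The 4 ligands together made up 94.4 ± 12.9 CPM (SD, n = 8) in sham and 111.9 ± 13.5 CPM (SD, n = 9) in IZ, and both receptors together made up 71.6 ± 7.98 and 137.9 ± 20.8 CPM. The log2 ratio of ligand to receptor counts was 0.21 to 0.68 in sham and -0.70 to 0.02 in IZ, so that every IZ library lay below every sham library. Its mean was 0.39 ± 0.17 in sham (SD, n = 8) and -0.30 ± 0.21 in IZ (SD, n = 9). The difference was -0.69 (95% interval -0.89 to -0.50), with an exact permutation p of 4.11e-05, the smallest these splits can give, and an adjusted p of 2.47e-04. Full separation of the groups was common among single features, of which 16.6% lay wholly above sham in IZ, both receptors among them, and 16.5% wholly below.

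**Figure D3:**
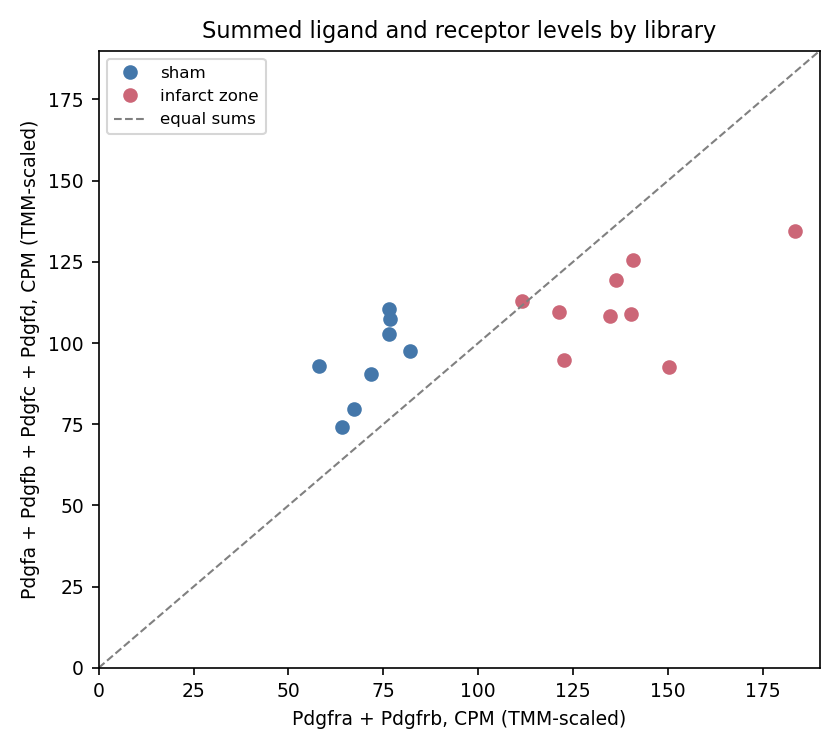
Summed CPM of the 4 ligands (vertical axis) against summed CPM of both receptors (horizontal axis) in 8 sham (blue) and 9 IZ (red) libraries, TMM-scaled and on linear axes from 0, with a dashed line where both sums are equal. All sham libraries lie above the line with log2 ratios of 0.21 to 0.68, 8 of the 9 IZ libraries lie below it, and IZ replicate 8 lies just above it at 0.02.

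Whether members varied together from heart to heart was examined within each group, over the 15 pairs of members in IZ (n = 9) and the same pairs in sham (n = 8). By exact two-sided permutation of pairings, 0 of the 30 relations passed the adjusted threshold for Pearson's r, and the lowest adjusted p was 0.367. An unadjusted p of r under 0.05 was found for 3 relations, all in sham. For Pdgfa and Pdgfra r was 0.72 (exact permutation p 0.0367, rho 0.62 with p 0.115), and 0.41 without the 2 libraries farthest from the median of Pdgfa. For Pdgfc and Pdgfrb r was -0.82 (exact permutation p 0.0347, rho -0.76 with p 0.0368), and -0.19 without the 2 libraries farthest from the median of Pdgfc, so that relation rested on them. For Pdgfd and Pdgfrb r was 0.77 (exact permutation p 0.0198, rho 0.60 with p 0.132), and 0.31 likewise. Between the receptors in IZ r was 0.012 and rho 0.17 (exact permutation p 0.976 and 0.678).

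Features whose level followed a member most closely from heart to heart were sought among tested features of at least 20 CPM, by Pearson's r of log2 CPM over the 17 libraries after each group's mean was subtracted. These are descriptions of libraries that share one scaling, and r without IZ replicate 1 is in brackets. Pdgfa was closest to Itfg1 at 0.80 (0.80), Sidt2 at 0.78 (0.86) and Mrc2 at 0.77 (0.89). Pdgfb was closest to Hdgfl2 at 0.79 (0.77), Ncstn at 0.76 (0.74) and Tmem94 at 0.75 (0.73). Pdgfc was close to Tagln at 0.75 (0.71) and Acta2 at 0.70 (0.64), contractile genes of smooth muscle cells and myofibroblasts. Pdgfd was closest to Spns1 at 0.85 (0.86), Mbtd1 at 0.84 (0.85) and Yipf1 at 0.76 (0.76). Pdgfra was close to Rpl35a-ps4 at 0.77 (0.71), a ribosomal pseudogene whose counts are uncertain, and to Slc15a4 at 0.72 (0.64). Pdgfrb was closest to Syne2 at 0.84 (0.89), Rgp1 at 0.78 (0.79) and Tcf3 at 0.76 (0.76).

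The genes that act on PDGF ligands outside the cell were read from lists beside the members, with a median log2 fold change of 0.05 over all tested features. Of these features, 36.3% were called higher and 33.1% lower. Of 7 tested proteases in the list for processing of PDGF chains, 4 rose, 1 fell and 2 were not called, with a median of 0.70. Mmp14 encodes a membrane-bound matrix metalloproteinase, and its action on PDGF chains was not examined. Its level went from 18.8 ± 7.68 CPM to 215.1 ± 63.0 CPM (SD, n = 8 and 9; log2 fold change 3.54, edgeR adjusted p 3.42e-12). Plat, the tissue plasminogen activator that activates PDGF-C, went from 15.4 ± 2.67 to 26.8 ± 8.0 CPM (log2 fold change 0.85, edgeR adjusted p 2.31e-04). Plau, the urokinase that activates PDGF-D, went from 10.3 ± 2.59 to 23.5 ± 5.33 CPM (log2 fold change 1.19, edgeR adjusted p 2.65e-06). Furin was 0.28 higher on the log2 scale (edgeR adjusted p 0.0267). Pcsk6, another convertase, fell by 0.81 on the log2 scale (edgeR adjusted p 0.00456), whereas total counts alone gave 0.23. Pcsk5 and Pcsk7 had log2 fold changes of 0.70 and 0.24 and were not called, and St14 had at most 16 counts and was not tested. Plat and Plau, which activate the latent chains, thus rose beside a higher Pdgfc and, with TMM, a lower Pdgfd.

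Among the inhibitors and receptors of plasminogen activators, Serpine2 rose by 1.89 and Plaur by 2.58 on the log2 scale (edgeR adjusted p 8.88e-11 and 4.81e-07). Serpinb2 was at 0 in every sham library, had at most 18 counts in an IZ library and was not tested. Of 9 co-receptors and ligand binding proteins, 6 rose and 3 were not called, with a median of 1.85. Thbs1 rose by 3.68, the receptor-like gene Pdgfrl by 3.17, Sparc, which binds PDGF-B, by 2.94, Itgb3 by 2.74, the endocytic receptor Lrp1 by 1.85 and Itgav by 1.73 on the log2 scale. Sparc was the most abundant of them, at 521.1 ± 114.1 CPM in sham and 3988 ± 578.0 CPM in IZ (SD, n = 8 and 9). Nrp1, Cspg4 and Hspg2, which encodes the heparan sulfate proteoglycan perlecan, had log2 fold changes of -0.11, 0.06 and 0.31 and were not called (edgeR adjusted p 0.533, 0.770 and 0.0762).

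Inside the cell, the genes downstream of the receptors went both ways. So did all tested features, with 36.3% called higher and 33.1% called lower. Of 22 tested adaptors and effectors, 6 rose, 9 fell and 7 were not called, with a median of -0.07. Their extremes were Src, a receptor-bound tyrosine kinase (log2 fold change 1.92, edgeR adjusted p 1.58e-07), and Pik3r1, the regulatory subunit of PI3-kinase (-1.13, edgeR adjusted p 5.84e-09, but -0.06 with total counts alone). Of 12 negative regulators 7 rose, 3 fell and 2 were not called, with a median of 0.43, from 1.97 for the phosphatase gene Ptpn1 (edgeR adjusted p 6.44e-11) to -1.06 for Spry4 (edgeR adjusted p 0.00122). Of 9 tested PDGF-inducible genes 3 rose, 2 fell and 4 were not called, with a median of -0.36, from 3.37 for Ccl2 (edgeR adjusted p 8.18e-08) to -1.52 for the chemokine gene Cxcl1 (edgeR adjusted p 3.16e-04). Without IZ replicate 1, 5 of these 9 genes fell. With total counts alone 0 genes of these 3 lists were called lower, and 17, 11 and 5 were called higher. Crkl and Has2, with at most 3 and 47 counts, were not tested.

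The other class III receptor tyrosine kinases, relatives of the PDGF receptors, did not move as a block. The receptor genes Csf1r and Kit rose by 2.31 and 1.49 on the log2 scale (edgeR adjusted p 9.30e-13 and 8.23e-05). Among their ligands Kitl fell by 1.37 (edgeR adjusted p 4.66e-08; by 0.33 and not called with total counts alone), and Csf1 and Flt3l had log2 fold changes of -0.03 and -0.31 without a call. Il34 and Flt3 were not tested.

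**Figure D4:**
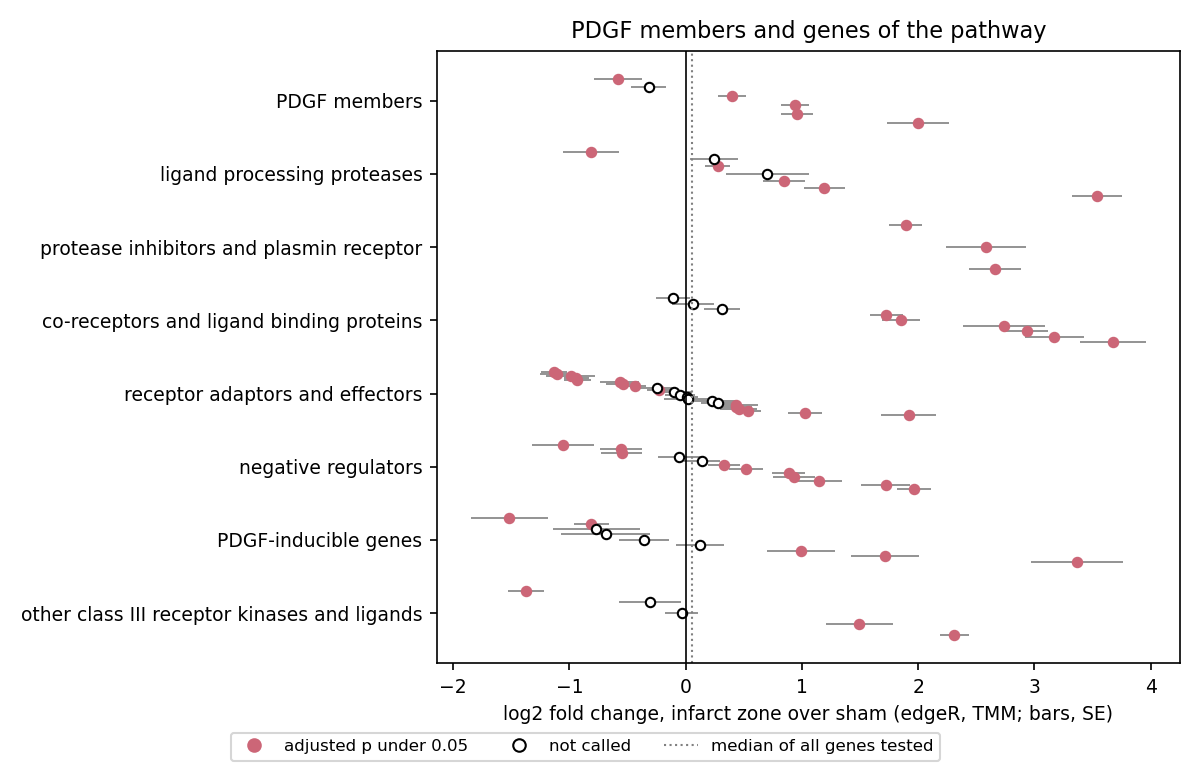
Log2 fold change (IZ over sham) of the PDGF members and of the tested genes of 7 pathway lists, from edgeR with TMM scaling, with SE as bars, filled points for an adjusted p under 0.05 and a dotted line at the median of all tested features. The receptors sit at 0.94 and 0.96, the co-receptor list reaches 3.68, and the effectors spread to both sides. Scaling by total counts alone moves all points to the right by about the shift of the median, 1.08, and leaves 0 of them called lower.

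Markers of cell types known to express these members were read beside them, where 36.3% of all tested features were called higher and 33.1% lower. Of 9 fibroblast markers 6 were higher, among them Col1a1 with a log2 fold change of 4.0, while Pi16 had -0.03. Their summed level was 1427 to 2529 CPM in sham and 8160 to 14622 CPM in IZ. All 6 myofibroblast markers were higher, from 2.05 for Fap to 4.51 for Cthrc1, with sums of 239.7 to 467.4 CPM and 2523 to 4774 CPM. The medians of these lists were 1.57 and 3.30, beside 0.94 for Pdgfra and 0.05 for all tested features, and their part in the Pdgfra, Pdgfrb and Pdgfc results was not tested.

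Mural cell markers went both ways, and the part of these cells in the Pdgfrb result was not tested. Of 8 pericyte markers 2 were higher, 4 lower and 2 not called, from 1.43 for Mcam to -2.72 for Abcc9, whereas with total counts alone 3 were higher and 2 lower and the median went from -0.87 to 0.16. Their sums were 490.8 to 734.9 CPM in sham and 220.2 to 527.3 CPM in IZ. Of 6 smooth muscle markers 4 were higher, 1 was lower and 1 was not called, from 2.79 for Tagln to -0.92 for Myh11, which had 0.15 and no call with total counts alone. The median of the 6 was 1.44, beside 0.96 for Pdgfrb. The sums of these smooth muscle markers were 183.4 to 441.6 CPM and 561.8 to 1572 CPM, and Acta2 and Tagln stand in the myofibroblast list too.

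Endothelial cells are known as a main source of Pdgfb. Of their 10 markers 4 were lower and 6 were not called, from -0.04 for Emcn to -1.70 for Kdr, with sums of 562.8 to 1043 CPM in sham and 426.4 to 689.5 CPM in IZ. With total counts alone 8 of them were called higher and 1 lower. All 7 analysed macrophage markers were higher, from 1.15 for Mrc1 to 4.09 for Cd68, with sums of 356.1 to 516.9 CPM and 1870 to 5097 CPM. Platelets and megakaryocytes store PDGF. Of their 6 markers, Ppbp, Itga2b, Gp9 and Gp6 were not tested, and Pf4 was higher by 2.20 on the log2 scale. Gp1bb had 3.34, but its sham mean of 0.374 CPM lay below the level of 3 counts. It could thus be tested only because of its IZ counts, and its rise is not read as a result. The sums of the 6 were 28.6 to 49.7 CPM and 49.9 to 354.6 CPM. Of the rarer types, Msln was higher by 2.22 and Wt1 had 0.03 among epicardial and mesothelial markers, and the glial marker S100b had 0.38 and was not called. No marker was at 0 in every library, and the part of these cells in the member results was not tested.

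**Figure D5:**
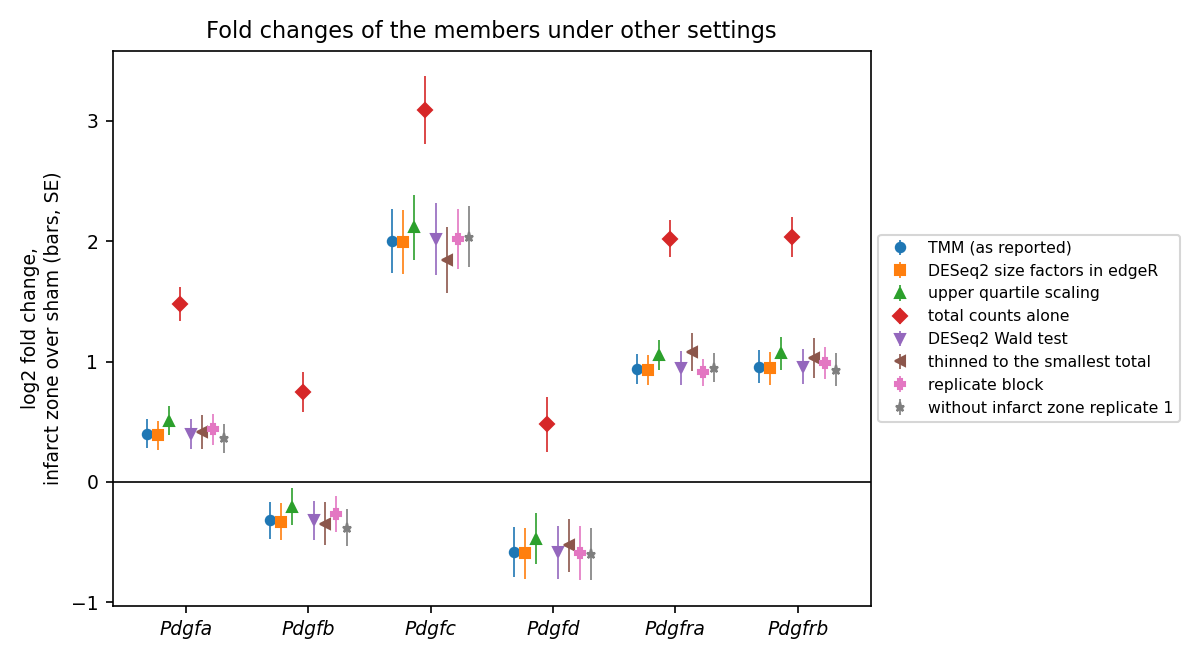
Log2 fold change (IZ over sham) of each PDGF member under 8 settings, with SE as bars. Pdgfa, Pdgfc, Pdgfra and Pdgfrb stay above 0 in all settings shown, while Pdgfb and Pdgfd lie below 0 except with total counts alone, where they reach 0.75 and 0.48.

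The scaling is what moved the members as a group, as the plot of fold changes under other settings shows. Against TMM, upper quartile scaling shifted the median of all tested features by 0.11 and total counts alone shifted it by 1.08 on the log2 scale, and the share of calls that were higher went from 52.3% to 57.6% and 85.7%. Relative to that median, the log2 fold changes with total counts alone were 0.35 for Pdgfa, -0.39 for Pdgfb, 1.96 for Pdgfc, -0.65 for Pdgfd, 0.89 for Pdgfra and 0.90 for Pdgfrb. With TMM the same values were 0.35, -0.37, 1.95, -0.64, 0.89 and 0.90.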

How the data were processed

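Transcripts of 8 sham LV and 9 IZ hearts were measured by MACE. The authors isolated DNase-treated total RNA, prepared 3' end libraries with molecular identifiers, trimmed reads with Cutadapt, mapped them to mm10 and counted them per gene with HTSeq. The submitters' processing notes also name bcl2fastq, Bowtie2 and DESeq2. The strand setting, the annotation release and how reads with several locations were handled are not given in the sources used here. The deposited values are raw counts without normalisation, and all 17 columns were used. Of 31647 features, 31521 matched a symbol, 35 were merged groups of overlapping genes and 3979 had no count. Itgam was not analysed here.

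Libraries held 1237675 to 4738307 counts. Pairs of libraries differed by 2.41 to 252 times the sampling variance (chi-square per degree of freedom), so each counted as 1 sample. The labels gave no batch or date. Intervals from counts and floors cover counting error only.

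The members and gene lists were chosen with earlier results of these data known. Features passing filterByExpr (minimum of 10 counts) were tested across groups by the two-sided quasi-likelihood F-test of edgeR 4.0.16 (R 4.3.3) with TMM factors of 0.616 to 1.53, no covariates and Benjamini-Hochberg adjustment at 0.05. SE was derived from the F statistic, and log2 CPM used a prior count of 1. Shares and ratios were compared over all 24310 splits with intervals from shifts that the exact test did not reject, and pairs of members over all 362880 or 40320 pairings. Named genes were the 6 members, the extremes of each list, every gene of pathway lists of 9 or fewer genes, and the 3 closest features per member. The results of some genes that met this rule are not reported here. On simulated data for IZ versus sham (11534 genes, 200 changed by 1 on the log2 scale), 77.0% of changed genes were called and 6.10% of calls were unchanged genes. Near-identical 3' ends were sought with BLAST 2.17.0 (at least 100 bases at 95% identity). The alternatives tried were scaling by DESeq2 size factors, by upper quartiles or by total counts alone, the DESeq2 1.42.0 Wald test, leaving out the filter or asking for a mean of 50 counts, thinning libraries to the lowest total, dropping mitochondrially encoded features, a block for replicate number, and omission of each library. Python 3.11.15, NumPy 2.4.6, pandas 2.3.3, SciPy 1.17.1 and Matplotlib 3.10.9 served the remaining steps.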

Additional observations from a re-analysis of the deposited data

Results flagged for a closer look

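Of 24 sets of values (the level of each member and each make-up measure in each group), 2 held a library that lay far from the rest of its group by Dixon's criterion at 95%, which chance alone gives in about 1 of 20 sets. Both were Pdgfc in sham replicate 5. Its level was 7.69 CPM, on 15 counts, and the next sham library had 3.64 CPM, so that this gap took 0.70 of the range of the group. Pdgfc made up 8.29% of the ligand counts of the same library, and the next sham library had 3.73%, a gap of 0.74 of the range. Without this library the log2 fold change of Pdgfc was 2.29, against 2.0 with it. The same library also had the lowest Pdgfrb level in sham, at 30.8 CPM. The part of counting error, sampling of tissue or the individual mouse in this value was not tested.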

How the results depend on the processing

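Of 331 comparisons of 15 results with an alternative, 305 kept direction and side of the threshold. Pdgfa, Pdgfc, Pdgfra and Pdgfrb kept their calls under every alternative that gave a value, with log2 fold changes on omission of single libraries of 0.33 to 0.46, 1.87 to 2.29, 0.88 to 1.0 and 0.88 to 1.03. A minimum mean of 50 counts gave no value for Pdgfc and Pdgfd, and it left 5239 genes called, against 8544, since fewer genes were tested (6734). Omission of single libraries gave 7962 to 8614 called genes. Pdgfb had -0.39 to -0.23 on omission of single libraries, Pdgfd -0.70 to -0.51. Total counts alone turned Pdgfb to 0.75 and Pdgfd to 0.48 on the log2 scale, which follows from its shift of all features. Pdgfd was -0.47 with upper quartile scaling and -0.52 with no filter on low counts, neither past the threshold. The cause was not tested for the loss with no filter.

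The rise in the Pdgfa share was not past the threshold after thinning (5.76 percentage points, adjusted exact permutation p 0.0606) or as a difference in medians (4.90, adjusted exact permutation p 0.0968), and omission of single libraries gave 4.72 to 7.06. The difference in the Pdgfra share, near 0 throughout, had the opposite sign after thinning (0.52) and ran from -1.39 to 1.38 on omission of single libraries. The cause was not tested.

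Replicate numbers did not pair the samples. The deviations of same-numbered sham and IZ libraries correlated at -0.22 to 0.13, 1 of 8 pairs exceeded 0.1, and 1 of 8 sham libraries was closest to the IZ library of its own number. With the replicate number as a block, edgeR called 8078 genes and the log2 fold changes were 0.44 for Pdgfa, -0.26 for Pdgfb, 2.02 for Pdgfc, -0.59 for Pdgfd, 0.91 for Pdgfra and 0.99 for Pdgfrb, with no call among the members changed.

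Depth limits Pdgfc and Pdgfd most, with 4 to 15 and 11 to 30 counts per sham library.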
